A study of Mus musculus with 2 samples.

Results

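The 9 microRNA hairpins described here are Mir493, Mir337, Mir540, Mir665, Mir431, Mir433, Mir127, Mir434 and Mir136, which lie near or antisense to the gene Rtl1 in the imprinted Dlk1-Dio3 region of mouse chromosome 12. They were picked by their GENCODE M21 symbols, a rule in which no measured value enters, but the list was proposed with earlier results known. These members are 9 of the 2202 annotated hairpins in the tables. Their reads were counted in heart tissue of 2 female B6CASTF1/J mice, 25 days old by the age field, which form 1 group without treatment. B6CASTF1/J is the first-generation hybrid of the strains C57BL/6J and CAST/EiJ. The labels number the 2 animals separately and call them biological replicates 1 and 2, yet give both the same donor identifier, and a free-text label states the age in another unit. With 1 group there is no contrast between conditions, and the results are levels, sequences and a comparison of the 2 libraries. Where p-values are given they concern these libraries and cannot separate animal from technical differences.

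The Dlk1-Dio3 region is imprinted, so its genes are read from only one parental chromosome. The protein-coding genes Dlk1, Rtl1 and Dio3 are expressed from the paternal copy, and the long noncoding RNAs Meg3, Rian and Mirg, together with the microRNAs and small nucleolar RNAs around them, from the maternal copy. Rtl1 is a gene derived from a retrotransposon that is needed for the fetal vessels of the placenta. Several of the hairpins are cut from a maternal transcript that runs through Rtl1 in the opposite direction, and the mature microRNAs, being perfectly complementary, are known to direct cleavage of the paternal Rtl1 messenger RNA. The counts do not separate the parental alleles, so imprinting itself was not measured.

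All 9 hairpins are on the plus strand and span 15.156 kb, from 109580233 (the start of Mir493) to 109595388 (the end of Mir136) in mm10. Rtl1 is on the minus strand, from 109589193 to 109600330. Mir431, Mir433, Mir127, Mir434 and Mir136 lie inside it, and all 5 are within its single coding segment, from 109590172 to 109595403. The other 4, Mir493, Mir337, Mir540 and Mir665, lie beyond the 3′ end of Rtl1, between Meg3 and Rtl1. Mir665 is from 109586314 to 109586407, Mir540 from 109586080 to 109586146 and Mir337 from 109585789 to 109585885, so these 3 are close neighbours, while a gap of 5473 bp separates Mir337 from Mir493.

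The sequences show what antisense means here. The RefSeq table for GRCm38.p6 held all 9 hairpins with 18 mature arms, and the hairpin sequences were identical to those of GENCODE M21. Of the 18 arms, 10 are perfectly complementary over their whole length to the Rtl1 transcript, namely both arms of the 5 hairpins inside the gene. They are printed 5′ to 3′, with the seed (bases 2 to 8, which lead the pairing with ordinary targets) in capitals.
miR-431-5p: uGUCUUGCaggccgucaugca
miR-431-3p: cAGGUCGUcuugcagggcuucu
miR-433-5p: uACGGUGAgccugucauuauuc
miR-433-3p: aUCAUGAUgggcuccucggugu
miR-127-5p: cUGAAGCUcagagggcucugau
miR-127-3p: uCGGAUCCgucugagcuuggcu
miR-434-5p: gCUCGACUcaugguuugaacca
miR-434-3p: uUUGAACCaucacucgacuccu
miR-136-5p: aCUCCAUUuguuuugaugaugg
miR-136-3p: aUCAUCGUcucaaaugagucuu

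The coding strand of Rtl1 holds the matching sites, of which those of the 2 members with the most reads are shown, with the bases facing the seed in capitals. In mm10 they are the minus strand of chr12:109592888-109592909 and chr12:109590459-109590479.
Rtl1 site of miR-127-3p: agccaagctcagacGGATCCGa
Rtl1 site of miR-431-5p: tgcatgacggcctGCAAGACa

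The 8 arms from the 4 hairpins outside Rtl1 paired with the Rtl1 transcript over runs of at most 8 to 11 bases. The 18 arms carried 18 different seeds, so the members form no seed family. Among 1679 mature mouse microRNAs in the table, only the seed of miR-540-3p recurred, in miR-6915-5p, whose hairpin Mir6915 had 2 and 3 counts in replicates 1 and 2. The longest run that any member shared with another annotated hairpin on the same sense was 14 bases (Mir493), and it was 11 to 13 bases for the other 8. Reads that match several places enter no hairpin count, and by this measure the members have no near-copy among annotated hairpins. Matches elsewhere in the genome were not searched.

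Each library was read as raw counts on the strand of the hairpin and as CPM, the count scaled to a total of 1000000 reads assigned to hairpins. Replicate 1 held 2050498 such reads and replicate 2 held 2661090. A hairpin with 0 reads could thus have up to 1.46 CPM in replicate 1 and 1.13 CPM in replicate 2, the value of 3 counts, which is a one-sided 95% limit. The two-sided intervals of the plots reach slightly higher at 0. Intervals are 95% exact binomial for CPM and 95% Wilson for shares. They cover the counting error of reads only. Copies of a molecule made by PCR were not told apart, so the intervals may be too narrow for counts of molecules. The labelled tissue was checked on 7 heart muscle hairpins, which summed to 4493 and 8308 CPM, with 4 of 7 at 10 or more counts in both libraries. Mir208a had 3322 and 15598 counts and Mir499 5391 and 6167, while Mir1a-1 had 3 and 1 and Mir1a-2 94 and 31. The last pair are copies of one microRNA, and reads that match both enter neither count.

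Mir127, best known for its role in the placental vessels of the mouse, supplied most of the members' reads. It had 3456 counts in replicate 1 and 7321 in replicate 2, or 1685 CPM (interval 1630 to 1743) and 2751 CPM (2689 to 2815). Its mean was 2218 ± 754 CPM (SD, n = 2), with ranks of 46 and 37 among all hairpins. Its counting intervals do not overlap, and replicate 2 was the higher library. Mir127 made up 77.4% of the members' reads in replicate 1 (interval 76.2 to 78.6). In replicate 2 its part was 83.2% (82.4 to 84.0), and the mean 80.3% ± 4.08. It had 11.8 and 13.9 times as many counts as Mir431, the next member.

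**Figure D1:**
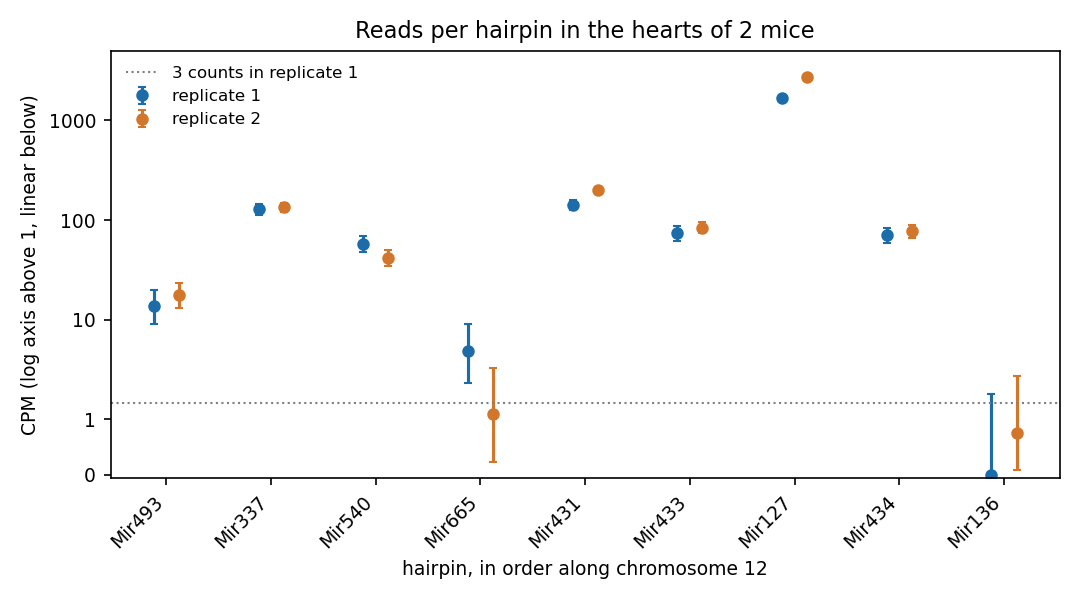
CPM of the 9 hairpins (y axis, log scale above 1 CPM and linear below) in replicate 1 (blue) and replicate 2 (orange), in order along the chromosome, with 95% exact binomial intervals that cover counting error only. Mir127 stands at 1685 and 2751 CPM, and Mir136 at 0 and 0.752 CPM, under the dotted line that marks 3 counts in replicate 1.

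Of the other hairpins inside Rtl1, 3 were at moderate levels and 1 was at the limit of detection. Mir431, studied in muscle regeneration, had 292 and 527 counts, or 142 CPM (127 to 160) and 198 CPM (181 to 216), a mean of 170 ± 39.3 CPM (n = 2). Replicate 2 was again higher, and the counting intervals do not overlap. Mir433, studied in cardiac fibroblasts, had 151 and 224 counts, or 73.6 CPM (62.4 to 86.4) and 84.2 CPM (73.5 to 96.0). Mir434 had 144 and 205 counts, or 70.2 CPM (59.2 to 82.7) and 77.0 CPM (66.9 to 88.3). For Mir433 and Mir434 the intervals of the 2 libraries overlap. Their means, 78.9 ± 7.45 and 73.6 ± 4.81 CPM, differed by less than the SD of Mir433.

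Mir136, the member nearest to the start of Rtl1, had 0 counts in replicate 1 and 2 in replicate 2. That is 0 CPM, which allows up to 1.46, and 0.752 CPM (0.0910 to 2.71), and no level can be told from these libraries. Mir3071 is annotated on the opposite strand over the whole of Mir136, and it had 0 counts in both libraries. The column taken without regard to strand lists 0 for both hairpins, although the stranded column has 2 reads at Mir136 in replicate 2, so that column cannot serve as a check on this pair.

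The 4 hairpins outside Rtl1 spanned a wide range. Mir337 had 264 and 360 counts, or 129 CPM (114 to 145) and 135 CPM (122 to 150), and the libraries overlap. Mir540 had 119 and 112 counts, or 58.0 CPM (48.1 to 69.4) and 42.1 CPM (34.7 to 50.6), and it was the higher in replicate 1, with overlapping intervals. Mir493 had 28 and 47 counts, or 13.7 CPM (9.07 to 19.7) and 17.7 CPM (13.0 to 23.5). Mir665 had 10 and 3 counts, or 4.88 CPM (2.34 to 8.97) and 1.13 CPM (0.232 to 3.29), with overlapping intervals again. The neighbours Mir337, Mir540 and Mir665, whose starts lie within 1 kb, thus differed in counts in both libraries beyond their counting intervals.

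By reads, both libraries put the members in the same order: Mir127, Mir431, Mir337, Mir433, Mir434, Mir540, Mir493, Mir665 and Mir136. How reads of different hairpins relate to amounts of microRNA was not measured. Of the neighbours in that order, Mir431 and Mir337 (170 ± 39.3 and 132 ± 4.62 CPM) did not differ beyond their spread in both libraries: their intervals overlap in replicate 1 and not in replicate 2. Mir337 and Mir433 are apart in both libraries, and Mir433 and Mir434 overlap in both. The intervals of Mir434 and Mir540 (73.6 ± 4.81 and 50.1 ± 11.3 CPM) overlap in replicate 1 and not in replicate 2. Mir493 (15.7 ± 2.83 CPM) lay under Mir540 and over Mir665 (3.00 ± 2.65 CPM) in both libraries, without overlap. Those of Mir665 and Mir136 (0.376 ± 0.531 CPM) overlap in replicate 2 and not in replicate 1.

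**Figure D2:**
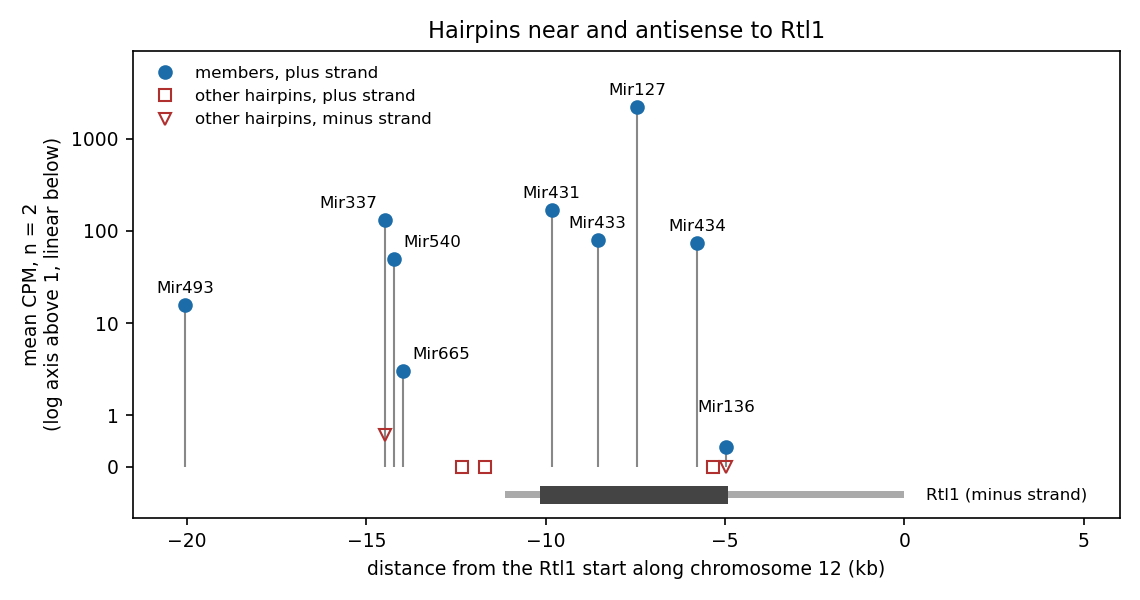
Mean CPM of the 2 libraries (y axis, log scale above 1 CPM and linear below) against the distance from the Rtl1 start along the chromosome in kb, with members as blue points and the other annotated hairpins between them as open red symbols. The grey bar is Rtl1 and its dark part the coding segment, over which Mir431, Mir433, Mir127, Mir434 and Mir136 lie. The members with the most reads (Mir127) and the fewest (Mir136) are both over the coding segment, though no level can be told for Mir136.

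Annotated hairpins between the members that are not members had almost no reads. On the plus strand, Mir3070a, Mir3070b and Mir432 had 0 counts in both libraries. Mir3070a and Mir3070b share a run of 43 bases with each other, so reads from either could match both places and would then enter no count. On the minus strand, Mir3071 had 0 counts and Mir3544 had 1 and 2 counts.

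Mir337 and Mir3544 are mirror hairpins over the same bases, and the arms that face each other are shown with their seeds in capitals. miR-337-3p and miR-3544-5p are complementary over 21 bases and miR-337-5p and miR-3544-3p over 17, so a read here is assigned by its strand.
miR-337-5p: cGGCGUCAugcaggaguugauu
miR-337-3p: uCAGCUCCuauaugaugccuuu
miR-3544-5p: aGAAAGGCaucauauaggagcug
miR-3544-3p: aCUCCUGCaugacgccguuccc

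The strand of Mir337 held 99.6% of the reads at this place in replicate 1 (exact lower bound 97.9) and 99.4% in replicate 2 (lower bound 98.0). The column taken without regard to strand gave both hairpins 0 counts, so the level of Mir337 exists only in the stranded column. At the 5 hairpins inside Rtl1, reads of the opposite strand, which is the strand of the Rtl1 messenger RNA, numbered 1 in replicate 1 (at Mir431) and 0 in replicate 2. MicroRNA reads do not measure the level of that messenger RNA, which was not counted here.

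The foldback of Mir127 is given because its counts carry most of the sum, with both mature arms in capitals. The tables count the whole hairpin (chr12:109592846-109592915, plus strand, GRCm38.p6), so how its reads divide between the arms is not known.
Mir127 hairpin: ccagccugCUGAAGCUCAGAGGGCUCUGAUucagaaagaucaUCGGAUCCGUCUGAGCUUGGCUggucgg

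Mir434 differs from the other members in its repeats. Its hairpin holds a run of 13 bases, ugguuugaaccau, in 2 copies, while the longest repeated run in the other 8 was 5 to 10 bases.
Mir434 hairpin: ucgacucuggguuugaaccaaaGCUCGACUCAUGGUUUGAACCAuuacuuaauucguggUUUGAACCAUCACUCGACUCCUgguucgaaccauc

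Together the 9 members held 0.218% of all hairpin reads in replicate 1 (interval 0.211 to 0.224). In replicate 2 they held 0.331% (0.324 to 0.338), and the mean was 0.274% ± 0.0799. Without Mir127 the other 8 held 0.0492% (0.0462 to 0.0523) and 0.0556% (0.0529 to 0.0585). Replicate 2 was higher in both cases, by less once Mir127 was left out. The 5 members inside Rtl1 held 0.197% and 0.311%, and the 4 outside 0.0205% and 0.0196%, whose intervals overlap (0.0187 to 0.0226 and 0.0180 to 0.0214).

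Set beside the rest of the Dlk1-Dio3 region, the members were few in number and large in reads. A list of 57 hairpins of the region included 39 distal ones, from Mir379 to Mir3072, farther along the chromosome than Rian. The distal hairpins held 0.269% of all hairpin reads in replicate 1 (0.262 to 0.276) and 0.272% in replicate 2 (0.266 to 0.278). These 2 intervals overlap, while those of the members' share do not. The members thus held 44.2% and 54.3% of the region's reads, and Mir127 alone 34.3% and 45.2%. Mir127 ranked 1 by mean in the region, followed by the distal Mir411 (647 ± 100 CPM), Mir541 (534 ± 82.0 CPM) and Mir379 (417 ± 27.6 CPM). It had 2.85 and 3.83 times the CPM of the next hairpin in each library. A mean of 100 CPM or more was reached by 3 of 9 members and 6 of 39 distal hairpins, and by 0 of the 9 others. Mir431 ranked 7, Mir337 9, Mir433 12, Mir434 13 and Mir540 14 of 57. At least 10 counts in both libraries were reached by 7 of 9 members and 26 of 39 distal hairpins, against 288 of all 2202.

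**Figure D3:**
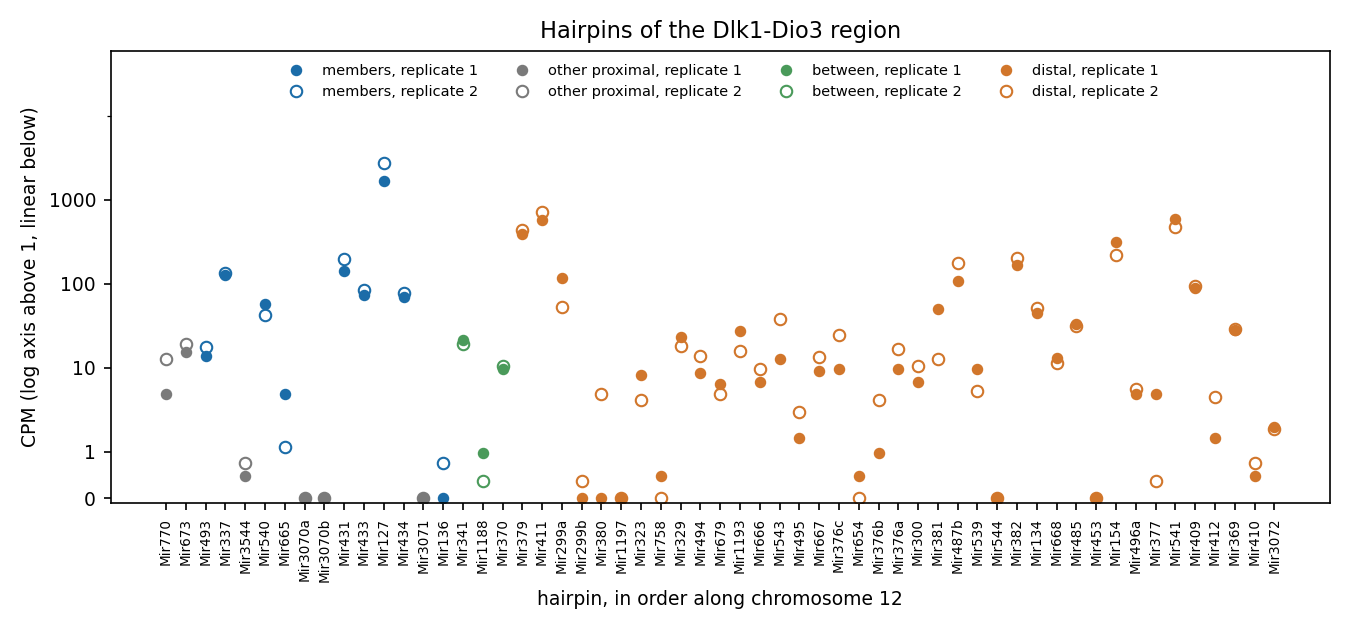
CPM (y axis, log scale above 1 CPM and linear below) of the 57 listed hairpins in order along the chromosome, with filled points for replicate 1 and open points for replicate 2. Mir127 is the highest in both libraries, at 1685 and 2751 CPM, and the distal hairpins Mir411, Mir541 and Mir379 follow.

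Outside the region, the hairpins closest in level to the 3 highest members were found by their distance in log2(CPM + 1) over the 2 libraries. Mir150 (1343 and 2509 CPM) and Mir130a (2361 and 2825 CPM) were closest to Mir127. Mir350 (145 and 191 CPM) and Mir24-1 (145 and 176 CPM) were closest to Mir431, and Mir338 (136 and 134 CPM) and Mir483 (139 and 125 CPM) to Mir337. With 2 libraries this likeness describes level only.

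The libraries were compared by an exact binomial test of each hairpin's 2 counts, scaled by TMM (trimmed mean of M values, a scaling that sets the bulk of hairpins to no change) and adjusted by the Benjamini-Hochberg method over the 326 hairpins that reached 10 counts in one library or both. Such a test asks only whether reads were drawn from the 2 libraries in the same proportion. It called 62.6% of all tested hairpins, 36.2% higher and 26.4% lower in replicate 2. Of the 8 members tested, 5 were called (62.5%), all 5 higher, so at this setting the members were called about as often as other hairpins. Mir136 had too few counts to be tested. The members' median log2 ratio of replicate 2 over replicate 1 was 0.39, beside 0.09 over all tested hairpins and 0.37 over the 30 tested distal hairpins. Ratios above 0 were found in 6 of 8 members, 20 of 30 distal hairpins and 178 of 326 hairpins. Among the distal hairpins 16 of 30 were called, 12 higher and 4 lower.

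**Figure D4:**
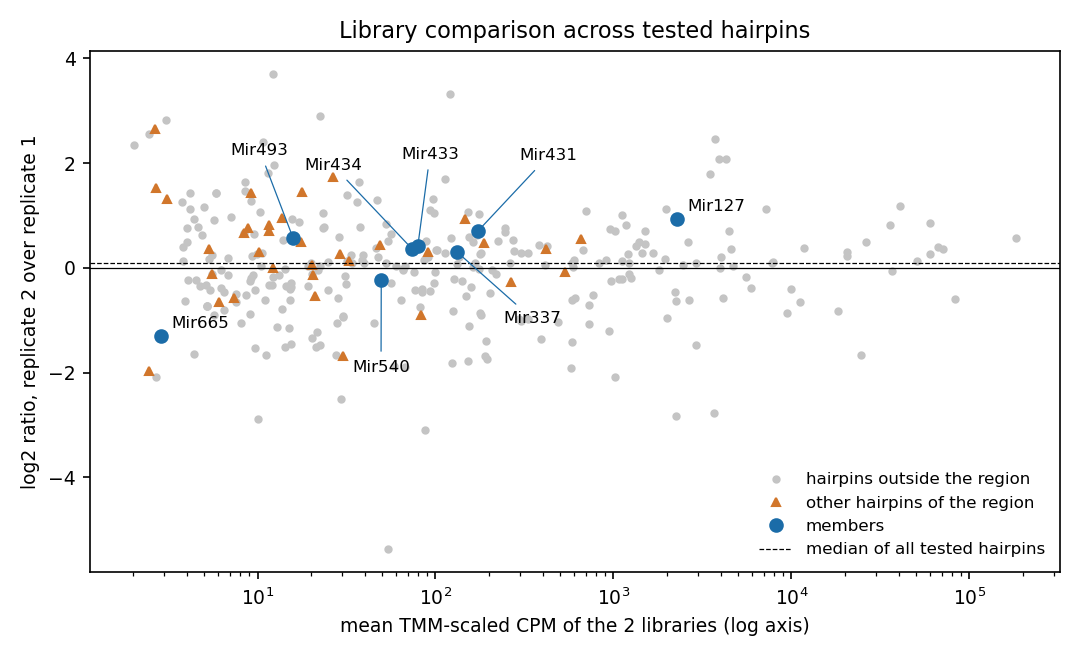
Log2 ratio of replicate 2 over replicate 1 (y axis) against the mean TMM-scaled CPM (x axis, log scale) for the 326 tested hairpins, with members in blue, other hairpins of the region as orange triangles and the median of all hairpins (0.09) as a dashed line. Of the 8 tested members, 6 lie above 0, and Mir665 at -1.31 and Mir540 at -0.23 lie below it, all within the cloud of other hairpins.

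Mir127 had a log2 ratio of 0.94 (exact interval 0.88 to 1.00, adjusted exact binomial p = 4.47e-230) and Mir431 one of 0.70 (0.50 to 0.92, adjusted exact binomial p = 3.17e-11). These 2 were called under all 8 alternative settings, with ratios from 0.71 to 0.94 for Mir127 and from 0.47 to 0.70 for Mir431. The alternatives that change only the pseudocount leave the p as it is, so they could not lose a call. Mir433 (log2 ratio 0.42, adjusted exact binomial p = 0.00976), Mir434 (0.36, p = 0.0355) and Mir337 (0.30, p = 0.0181) were called with TMM and lost the call with scaling by total count, where p was 0.279, 0.494 and 0.615. The exact binomial test did not call Mir493 (0.56, adjusted p = 0.123), Mir540 (-0.23, p = 0.305) or Mir665 (-1.31, p = 0.0746). By total count the same exact test called Mir540 (-0.45, adjusted p = 0.0298) and Mir665 (-1.47, p = 0.0381) lower. Scaling by total count moved the median of all hairpins by -0.23 to -0.14 and turned 118 higher and 86 lower calls into 76 and 117. Relative to the median of all hairpins, Mir127 was at 0.85, Mir431 at 0.61 and Mir337 at 0.21 with TMM.

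**Figure D5:**
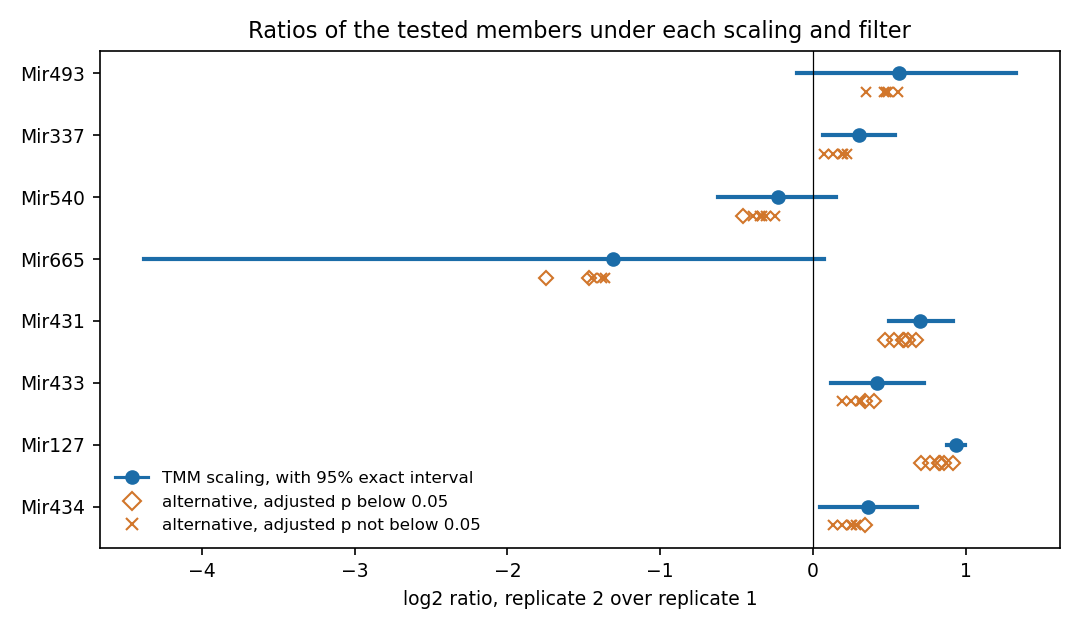
Log2 ratio of replicate 2 over replicate 1 (x axis) for the 8 tested members, as blue points with 95% exact intervals under TMM scaling and, just below, orange symbols for the alternative scalings, filters and count column. Diamonds mark an adjusted p under 0.05 and crosses one that is not. Only Mir127 and Mir431 have diamonds alone.

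The ratios were also set against the spread between the 2 libraries over all hairpins. The common dispersion of edgeR gave a biological coefficient of variation (the spread beyond counting error) of 0.467 over all tested hairpins, from which a log2 ratio between 2 samples has an SD of 0.95. In size, the ratios of 7 of the 8 members were smaller than that, Mir127 only just (0.94), and that of Mir665, with 10 and 3 counts, was larger. DESeq2's median gene-wise dispersion gave 0.230 and an SD of 0.47, which Mir127, Mir431, Mir493 and Mir665 exceeded. Both SDs leave out counting error, which widens the ratios of hairpins with few counts. Whether Mir665 and Mir493 (28 and 47 counts) exceed the spread with counting error included cannot be told from these SDs. With 1 library on each side of a ratio, no test over animals exists. Marker hairpins moved between the libraries as well, given here in CPM without the TMM scaling used for the ratios. The heart muscle sum, most of it from Mir208a and Mir499, went from 4493 to 8308 CPM. Mir208a went from 1620 to 5862, while Mir208b (191 to 112) and Mir1a-2 (45.8 to 11.6) went the other way. Reads that match both Mir1a copies are missing here, so Mir1a-2 does not give the direction of its microRNA. Mir133a-1 had 3 and 8 counts and Mir133a-2 had 8 and 7. The direction of Mir499 depended on the scaling: it went from 2629 to 2317 CPM, but from 2427 to 2510 with TMM. Smooth muscle (2 hairpins, both higher in replicate 2) went from 29354 to 48287 and endothelium (Mir126a) from 108082 to 60950. The sum of 4 blood hairpins went from 1908 to 1088, with Mir144, Mir451a and Mir486 lower and Mir223 higher (125 to 219). The epithelium sum went from 329 to 193, with Mir205 going from 238 to 4 counts, and in CPM Mir200b from 36.1 to 10.5 and Mir200c from 176 to 180. The liver hairpin Mir122 went from 22.9 to 202.9 CPM. Their part in the ratios of the members was not tested. In whole tissue, fewer cells of a type and less RNA per cell cannot be told apart.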

How the data were processed

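MicroRNA reads from 2 heart libraries were analysed. The authors deposited raw counts of reads per annotated hairpin, with 1 column that ignores strand, 1 for the hairpin's strand and 1 for the reverse. The reference was mm10 with GENCODE M21, per the file headers of the accompanying notes. Which aligner and counter were used is not given in the sources used here. Of all reads, 41.0% and 41.2% were assigned to hairpins in replicates 1 and 2. Reads matching several places (38.5% and 41.6%), unmapped reads (14.1% and 11.5%) and reads in no hairpin (6.48% and 5.64%) stayed out of all totals.

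All 2202 identifiers matched GENCODE M21. The tables have no column names. Which column holds the hairpin's strand was inferred from the sums, that of the column used (2050498 and 2661090) being larger than that of the reverse (609685 and 768426). CPM, shares, intervals and ratios were computed with SciPy 1.17.1 and R 4.3.3, TMM with edgeR 4.0.16 and size factors with DESeq2 1.42.0. Log2 ratios use a pseudocount of 1 CPM, and their intervals use counts alone. The code of the binomial test was checked on simulated counts that carry counting error only. Hairpins were named by a rule: all members, the hairpins between them, the 3 highest others of the region, the 2 closest in level to each of the 3 highest members, and the genes and tissue markers listed. Members were picked by symbol alone, but they and the other lists were proposed with earlier results of these data known. The region list was matched between Dlk1 and Dio3 only. Alternatives covered the count column, scaling, count minimum, pseudocount, library total and leaving out libraries or Mir127.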

Additional observations from a re-analysis of the deposited data

Results flagged for a closer look

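Reads in columns outside the main measurement exceeded 3 counts, the one-sided 95% limit for an observed 0. At Mir3544, the opposite-strand column held 264 reads in replicate 1 and 360 in replicate 2. These equal the counts of its mirror hairpin Mir337 and are the same reads seen from the other strand. Reads matching several places numbered 1925044 in replicate 1 and 2686901 in replicate 2, and how many of them belong to the members is not known.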

How the results depend on the processing

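With TMM, 5 of 8 tested members were called between the libraries, beside 204 of all 326 tested hairpins. DESeq2 size factors gave 3 of 8 members (Mir127, Mir431 and Mir433), beside 190 of 326. A minimum of 1 count gave 2 of 9, beside 177 of 648, and one of 50 counts 2 of 6, beside 165 of 223 (Mir127 and Mir431 both times). Without the 10 highest hairpins it was 3 of 8 (Mir127 and Mir431 higher, Mir665 lower), beside 184 of 316. Under each of these alternatives a smaller part of the members than of all hairpins was called, though few members were tested. TMM was recomputed after each filter, so the ratios moved as well. The log2 ratio of Mir337 was 0.30 with TMM at a minimum of 10 counts, 0.20 at 1 count and 0.13 at 50. Pseudocount aside, the ratios of Mir127, Mir431, Mir433, Mir434 and Mir337 were highest with TMM at a minimum of 10 counts. Over 61 pairs of a member and an alternative, 14 lost the call (Mir337, Mir433 and Mir434), 3 gained one (Mir540 and Mir665) and 0 changed sign. The pseudocount changes the ratio and not the p, so its pairs could not lose or gain a call. The members' share of 0.274% became 0.369% in the unstranded column, 0.897% without the 10 highest hairpins, 0.129% with reads in no hairpin and reads matching several places in the total, and 0.0524% without Mir127. Leaving out each replicate gave 0.218% to 0.331%. The unstranded column totalled 1440901 and 1892750 hairpin reads, fewer than the stranded one (2050498 and 2661090). It also gives Mir337 0 counts, so its share is not taken over the same reads. The median member level of 73.6 CPM became 237 CPM without the 10 highest hairpins and ranged from 70.2 to 77.0 CPM with each replicate left out. The coefficient of variation of 0.467 became 0.230 with DESeq2. Leaving out a replicate leaves no second library for the ratios or the spread, and no paired analysis was possible because there is only 1 group. Depth limits statements on Mir136 and Mir665.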
